A study of Mus musculus with 14 samples.

Results

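The cholesterol and fatty acid synthesis genes are 29 genes that encode the enzymes of both pathways, the proteins that switch them on, and a carrier of sterols. They were chosen by symbol, and all 29 were among the 14449 genes of the deposited table. All 29 also passed the filter on low values, which kept 12329 genes with a CPM (reads scaled for library size) over 1 in at least 3 libraries. The study sorted CD4+ Foxp3eGFP+ regulatory T cells from the lymph nodes of 35-day-old BALB/c mice and profiled their RNA in 14 libraries. Of these, 7 came from wild-type mice and 7 from Il1rn-/- mice, which lack the natural blocker of IL-1 signalling. The sample titles put 3 libraries of each genotype in a set a and 4 of each in a set b, with no meaning given for the letters. Both genotypes share the strain, the age and the reporter gate, and no treatment is given. The labels do not say whether each library came from its own mouse, so the p-values measure the spread between libraries, which may be technical.

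Cells make cholesterol from acetyl-CoA through mevalonate and isoprenoid units to squalene, lanosterol and the later sterols, and they make fatty acids from the same acetyl-CoA through malonyl-CoA. The genes of both routes are switched on by the SREBP proteins, encoded by Srebf1 and Srebf2, which SCAP carries from the endoplasmic reticulum to the Golgi when sterols are low and which INSIG1 and INSIG2 hold back when sterols are high. Regulatory T cells draw on the mevalonate route for their suppressive function, and T cells that start to divide need new membrane lipid.

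The promoters of 2 members are shown because SREBP binds sterol regulatory elements together with partner factors at CCAAT boxes, and these members differ in which of those letters they hold. The sequences come from RefSeq on GRCm38.p6, on the plus strand, from 250 bases before the start of transcription and up to the first annotated exon, with matches on either strand in capitals. The build behind the deposited values is not given in the sources used here. The Hmgcs1 window is chr13:119690101-119690350 and the Insig1 window is chr5:28071162-28071362.
Hmgcs1: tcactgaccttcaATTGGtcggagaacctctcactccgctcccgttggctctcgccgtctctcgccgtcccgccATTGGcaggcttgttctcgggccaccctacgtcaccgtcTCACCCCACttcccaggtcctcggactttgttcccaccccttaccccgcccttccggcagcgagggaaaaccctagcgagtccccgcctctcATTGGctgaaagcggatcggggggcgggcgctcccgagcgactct
Insig1: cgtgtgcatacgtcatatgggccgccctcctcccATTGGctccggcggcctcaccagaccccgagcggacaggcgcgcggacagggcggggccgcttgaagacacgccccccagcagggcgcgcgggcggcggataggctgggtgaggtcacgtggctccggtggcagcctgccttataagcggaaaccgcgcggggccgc

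Hmgcs1 held 1 match to the sterol element TCACNCCAC, at position -137 from the start, and 3 CCAAT boxes, at -237, -176 and -45, each read as ATTGG on this strand. Insig1 held 1 CCAAT box at -216. Of the 29 members, 23 had an entry, with 31 promoters between them. TCACNCCAC on either strand stood in 1 of these 31 windows of 250 bases, against 1.05% of all 32851 promoters of that length. CCAAT on either strand stood in 20 of the 31 (64.5%), against 33.8% of all promoters. In the 1 window that held the sterol element, the motifs did not overlap. These are letter matches, and no binding was measured.

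Depth differed between libraries, from 952021 to 3756559 reads in the genes of the table, and PCR copies of one molecule could not be told apart in them. The ribosomal RNA precursor Rn45s took 59.63% to 65.78% of the reads in 6 libraries, here called Rn45s-rich, which left 384360 to 905988 reads for all other genes. In the other 8, here called Rn45s-poor, it took 20.34% to 39.95% and left 1654868 to 2805693. All 6 libraries of set a were Rn45s-poor, as were the Il1rn-/- libraries 3-b and 4-b. The 4 wild-type libraries of set b and Il1rn-/- 1-b and 2-b were Rn45s-rich. The groups were defined here from the Rn45s share, were known from earlier work on these data and are not given by the labels. What set them apart was not tested. They put 3 wild-type and 5 Il1rn-/- libraries among the Rn45s-poor, so genotype and library group were partly mixed. Y-linked transcripts were present in 4 libraries, all Rn45s-poor: 2 of wild-type set a (1-a, 2-a) and 2 of Il1rn-/- set b (3-b, 4-b). The sorted cells carried their markers in every library: Foxp3 lay between 8.15 and 9.06 log2 CPM and Cd4 between 7.95 and 8.55. Adipocyte genes, a source of lipid synthesis transcripts from fat around lymph nodes, were near 0, with 55 reads over all 14 libraries for 4 of the 8 markers listed and at most 4 reads of Adipoq in any library. The other 4 adipocyte markers were not analysed here. Il1rn was not analysed here, so the genotype labels were not checked on it.

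Levels among the members were spread widely. Per kilobase of merged exons, Acly, which makes cytosolic acetyl-CoA from citrate, was highest, with a mean of 25.2 CPM per kilobase (SD 5.72, n = 14). Ebp, a sterol isomerase, followed with 19.8 (SD 6.78), and its range of 11.95 to 30.7 overlapped that of Acly, 12.5 to 32.8. Srebf1 with 11.8, Srebf2 with 11.04 and Insig1 with 10.2 came next, and these neighbours lay within each other's spread. The lowest means were those of Scd1, the fatty acid desaturase of liver and fat, with 0.629 CPM per kilobase (SD 0.421), Tm7sf2, a sterol reductase, with 0.504 (SD 0.237), and Acaca, the first committed enzyme of fatty acid synthesis, with 0.486 (SD 0.2998). Scd2, the related desaturase, had 6.04 (SD 2.14). In these lymph node cells the desaturase transcripts were therefore mainly those of Scd2, with ranges of 2.99 to 10.5 for Scd2 and 0 to 1.34 for Scd1 that did not overlap. The lengths merge the exons of all annotated transcripts of a gene, so the ranks depend on them. That of Acaca was 17074 bases, against 4403 for Tm7sf2.

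The first question was whether the loss of Il1rn went with a change of these genes in regulatory T cells. No member differed between genotypes at an adjusted p under 0.05 (limma with genotype and set as terms, Benjamini-Hochberg over all 12329 genes), and the smallest adjusted p among the 29 was 0.787. Over all genes, 0 of 12329 passed (0%), while 679 had an unadjusted p under 0.05, none of them a member. On the log2 scale, where a difference of 1 means a level 2 times as high, the median member difference (Il1rn-/- minus wild type) was -0.09, with 10 members above 0 and 19 below. The median over all genes tested was 0.04, with 55.3% of them above 0. With library group in place of set, a model that sets libraries of like Rn45s share against each other, the member median was -0.04. The values of the 2 genotypes overlapped for all 29 members, as they did for all but 0.0324% of the genes tested.

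**Figure D1:**
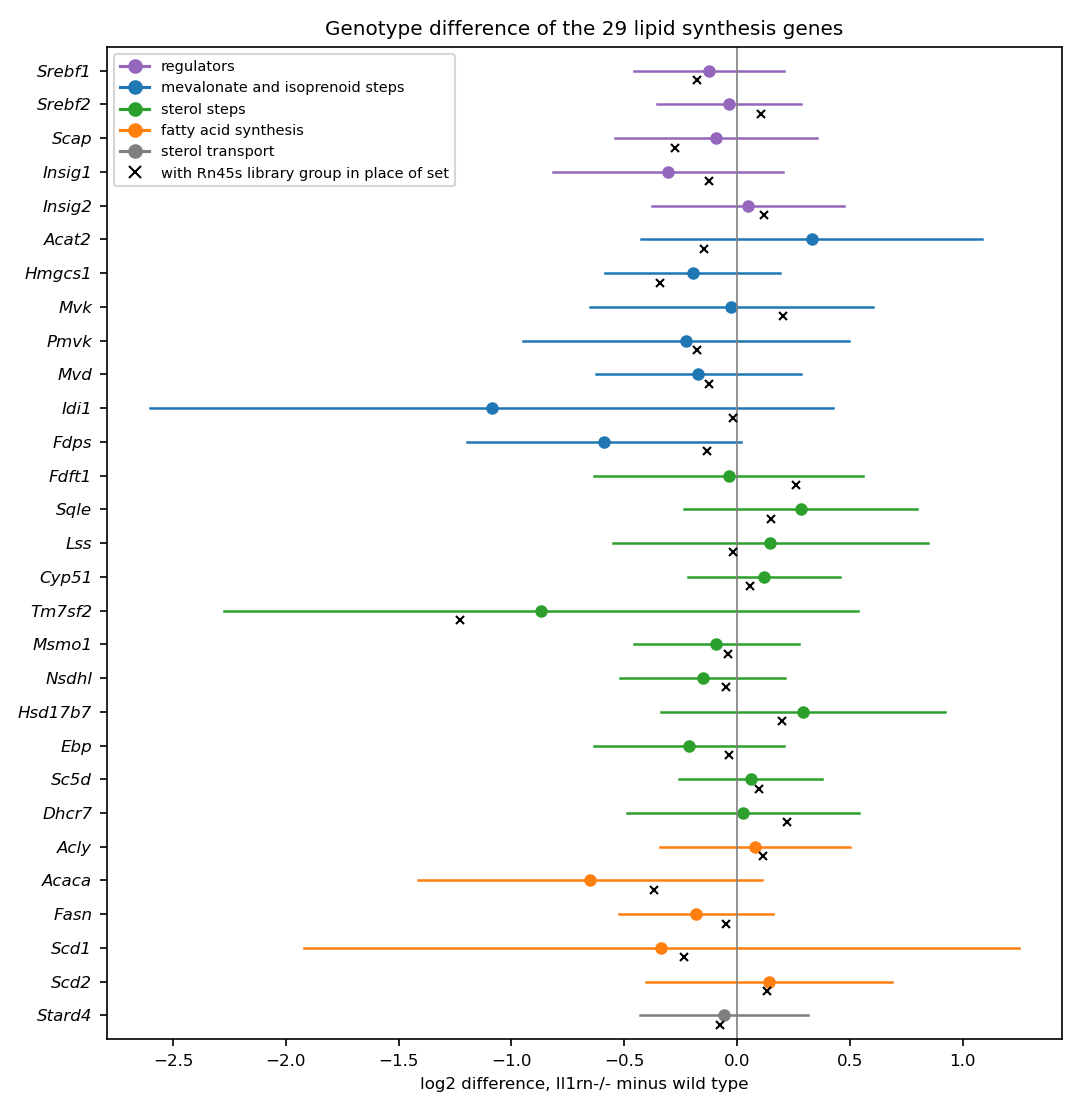
Log2 difference between Il1rn-/- and wild-type libraries (x axis) for each of the 29 genes (y axis), grouped by role; points are the limma estimate with set as a term, lines its 95% confidence interval, and crosses the estimate with Rn45s library group in place of set. All 29 intervals include 0, and the crosses of Idi1 (-0.02) and Fdps (-0.14) lie closer to 0 than their points (-1.09 and -0.59).

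The 5 regulators gave no call in either direction, with a median difference of -0.09. Srebf1 (Entrez 20787), whose SREBP-1 products drive fatty acid genes most, read 6.08, 6.34 and 5.74 log2 CPM in the wild-type libraries of set a and 5.94, 5.99, 6.41 and 6.20 in those of set b, each list in the order of the library numbers. In Il1rn-/- libraries it read 6.17, 5.95 and 5.95 in set a and 5.53, 5.68, 6.06 and 6.48 in set b. The lowest and the highest value were both in Il1rn-/- libraries of set b, and the difference was -0.12 ± 0.16 (SE; adjusted p = 0.883). It was 0.07 ± 0.17 within the Rn45s-poor and -0.53 ± 0.16 within the Rn45s-rich libraries (limma, adjusted p = 1 and 0.961). Srebf2 (20788), whose product drives cholesterol genes most, read 6.02, 6.21 and 5.87 in wild-type set a and 6.62, 6.79, 6.31 and 6.25 in wild-type set b. Its Il1rn-/- values were 6.21, 5.94 and 6.17 in set a and 6.48, 6.83, 5.84 and 6.36 in set b. Values above 6.4 occurred in 4 libraries, all of them Rn45s-rich, and the genotype difference was -0.04 ± 0.15 with a 95% interval of -0.36 to 0.29 (adjusted p = 0.968).

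Insig1 (231070), itself a sterol-regulated gene that feeds back on SREBP, was measured at 4.60, 5.34 and 4.27 log2 CPM in wild-type set a and at 5.50, 5.04, 5.26 and 5.40 in wild-type set b. The Il1rn-/- libraries had 4.44, 4.97 and 4.77 in set a and 5.30, 5.20, 3.62 and 4.97 in set b. Il1rn-/- 3-b was the lowest of all 14, and 5 of 7 Il1rn-/- libraries lay below the wild-type mean. The difference was -0.30 ± 0.24, with an interval of -0.81 to 0.21 (adjusted p = 0.821). It was -0.08 without Il1rn-/- 3-b, and -0.13 with library group in place of set. Insig2 (72999), the INSIG gene that responds less to sterols, gave 3.31, 3.12 and 3.59 in wild-type set a, 3.76, 4.07, 3.81 and 4.09 in wild-type set b, 4.07, 3.57 and 3.63 in Il1rn-/- set a, and 3.83, 3.38, 4.01 and 3.61 in Il1rn-/- set b. Its genotypes overlapped almost fully, with a difference of 0.05 ± 0.20 (adjusted p = 0.968). Scap, the SREBP escort, differed by -0.09 ± 0.21 (adjusted p = 0.942).

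**Figure D2:**
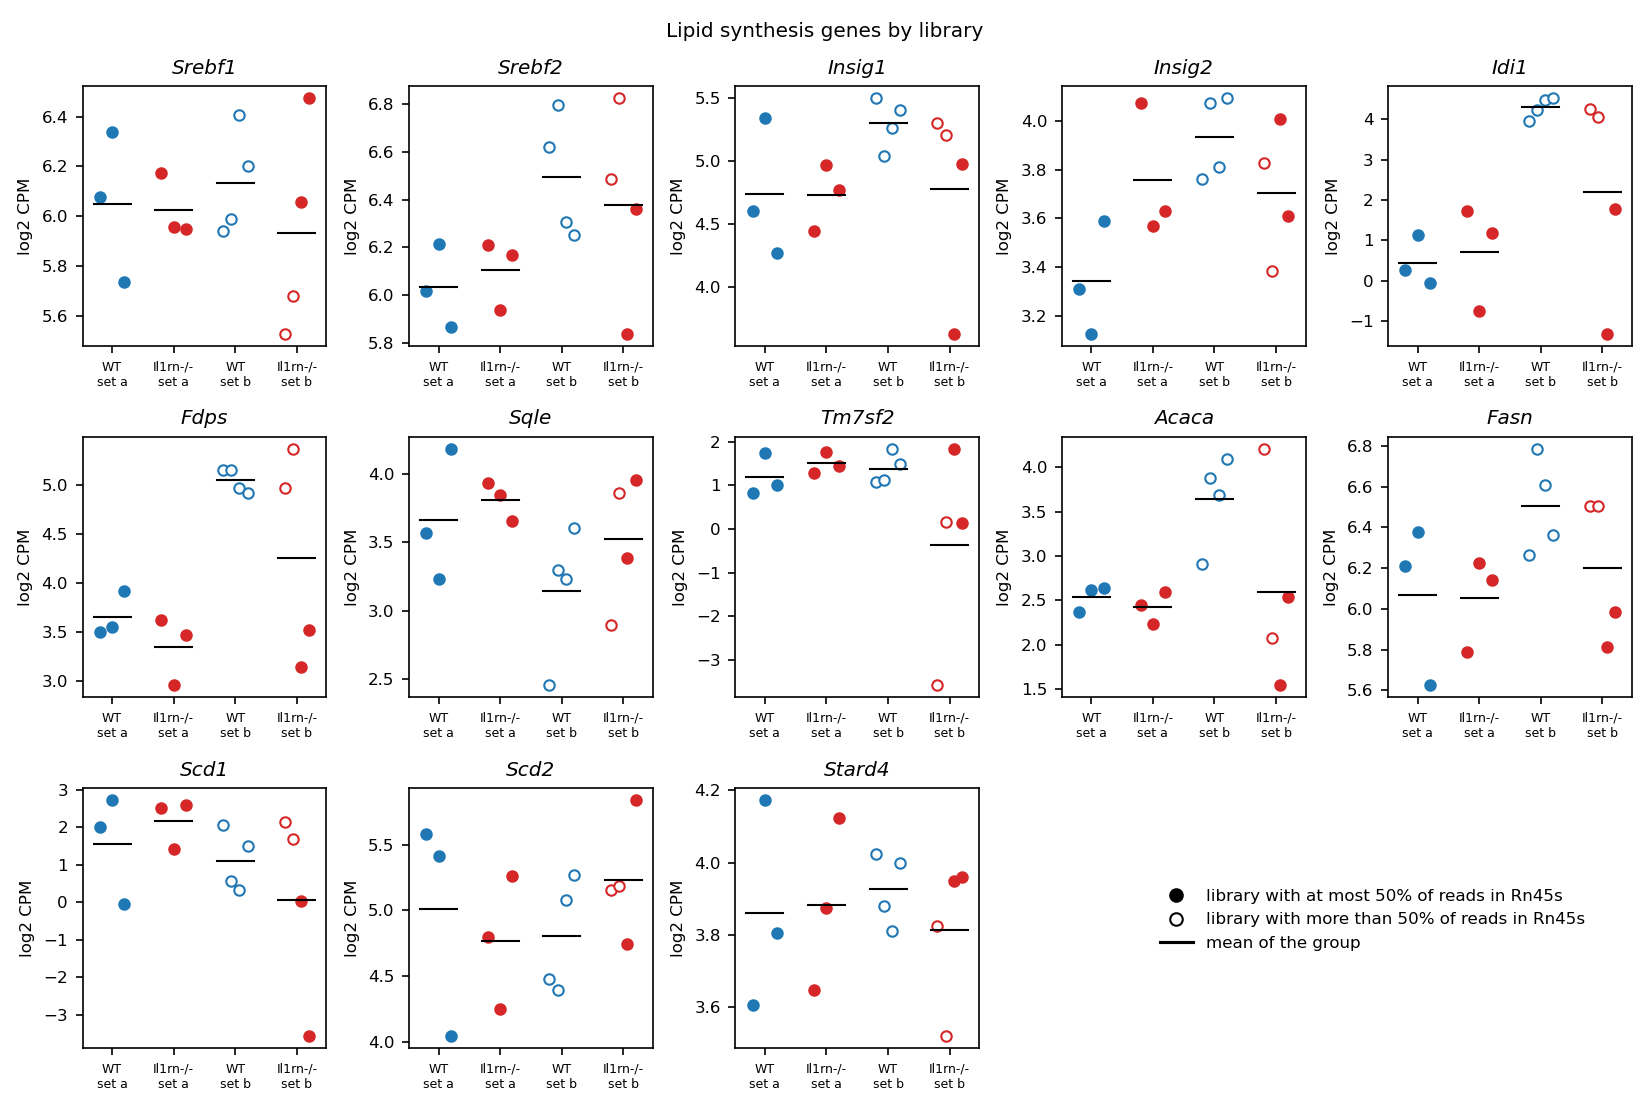
Log2 CPM (y axis) of 13 genes in each library, by genotype and set (x axis); filled circles are Rn45s-poor and open circles Rn45s-rich libraries, and bars are group means. The 6 open circles of Idi1 (3.96 to 4.53) and of Fdps (4.92 to 5.37) lie above all 8 filled ones in either genotype.

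Of the 7 genes of the mevalonate and isoprenoid steps, none was called, 1 difference was above 0 and 6 were below. Fdps (110196), farnesyl diphosphate synthase, read 3.502, 3.55 and 3.93 log2 CPM in wild-type set a and 5.16, 5.16, 4.97 and 4.92 in wild-type set b. Its Il1rn-/- values were 3.62, 2.96 and 3.47 in set a and 4.97, 5.37, 3.15 and 3.53 in set b. The 6 Rn45s-rich libraries were the 6 highest in both genotypes, and Il1rn-/- 3-b and 4-b lay with set a. The genotype means were 4.46 ± 0.76 (SD, n = 7) in wild type and 3.87 ± 0.93 (SD, n = 7) in Il1rn-/-, a difference of -0.59 ± 0.29 (SE) with an interval of -1.20 to 0.02 (limma, adjusted p = 0.787). It was -0.14 ± 0.18 with library group in place of set, -0.32 within the Rn45s-poor and 0.12 within the Rn45s-rich libraries.

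Idi1 (319554), the isomerase of isopentenyl diphosphate, was measured at 0.27, 1.13 and -0.06 log2 CPM in wild-type set a and at 3.96, 4.24, 4.47 and 4.53 in wild-type set b. The Il1rn-/- libraries had 1.72, -0.75 and 1.19 in set a and 4.25, 4.06, -1.33 and 1.79 in set b. These values rest on 1 to 15 reads in the Rn45s-poor and 19 to 42 reads in the Rn45s-rich libraries, so the shallower libraries held more reads of Idi1. The genotype difference was -1.09 ± 0.72 (adjusted p = 0.797), and it was -0.02 with library group in place of set, 0.08 within the Rn45s-poor and -0.15 within the Rn45s-rich libraries.

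The other members of these steps were Acat2, which joins acetyl-CoA units, Hmgcs1, which makes HMG-CoA, the kinases Mvk and Pmvk, and the decarboxylase Mvd. Their differences were 0.33 ± 0.36, -0.20 ± 0.19, -0.02 ± 0.30, -0.23 ± 0.35 and -0.17 ± 0.22 in that order, with adjusted p of 0.849 to 0.990 (limma). None of the 5 differed by more than about its own standard error.

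The 11 genes of the steps from squalene to cholesterol included none that was called, with 6 differences above 0, 5 below and a median of 0.03. Sqle (20775), squalene epoxidase, read 3.57, 3.23 and 4.19 log2 CPM in wild-type set a, 2.45, 3.30, 3.23 and 3.60 in wild-type set b, 3.94, 3.85 and 3.66 in Il1rn-/- set a, and 2.90, 3.87, 3.38 and 3.96 in Il1rn-/- set b. In 6 of 7 Il1rn-/- libraries Sqle exceeded the wild-type mean, yet the highest value was in wild-type 3-a, and the difference was 0.28 ± 0.25 with an interval of -0.24 to 0.80 (adjusted p = 0.835). Tm7sf2 (73166), which had 0 to 14 reads per library, read 0.82, 1.74 and 1.01 in wild-type set a, 1.07, 1.12, 1.84 and 1.499 in wild-type set b, 1.29, 1.77 and 1.44 in Il1rn-/- set a, and -3.584, 0.16, 1.82 and 0.13 in Il1rn-/- set b. The value of -3.584 in Il1rn-/- 1-b stands for 0 reads, which allows up to 3 reads at this depth. The difference of -0.87 ± 0.67 (adjusted p = 0.815) rested mainly on that library, and without it the difference was -0.22. Il1rn-/- 2-b and 4-b had 2 and 3 reads, and wild-type 1-b, 2-b and 3-b had 3 each. Among Rn45s-rich libraries alone, which include Il1rn-/- 1-b, the difference was -3.09 ± 1.09 (limma, adjusted p = 0.961).

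Among the remaining sterol genes, Fdft1 (squalene synthase), Lss (which closes the ring to lanosterol), Cyp51 (which demethylates it), Msmo1, Nsdhl, Hsd17b7, Ebp, Sc5d and Dhcr7 differed by -0.21 (Ebp) to 0.29 (Hsd17b7), with adjusted p of 0.849 to 0.986 (limma). For Cyp51, 6 of 7 Il1rn-/- libraries exceeded the wild-type mean, with a difference of 0.12 ± 0.16. Hsd17b7 was above it in 6 of 7 as well, and with 4 to 36 reads per library its standard error was 0.30.

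Fatty acid synthesis was represented by 5 genes, none of them called. Acaca (107476) read 2.36, 2.62 and 2.64 log2 CPM in wild-type set a, 2.91, 3.88, 3.68 and 4.09 in wild-type set b, 2.45, 2.23 and 2.59 in Il1rn-/- set a, and 4.21, 2.08, 1.54 and 2.54 in Il1rn-/- set b. Il1rn-/- 1-b had the highest value of all and the other 6 Il1rn-/- libraries were below the wild-type mean. The difference was -0.65 ± 0.36 with an interval of -1.42 to 0.11 (adjusted p = 0.787), and it was -0.37 ± 0.33 with library group in place of set. Fasn (14104), the fatty acid synthase, read 6.21, 6.38 and 5.62 in wild-type set a, 6.26, 6.78, 6.61 and 6.36 in wild-type set b, 5.79, 6.23 and 6.14 in Il1rn-/- set a, and 6.50, 6.50, 5.81 and 5.99 in Il1rn-/- set b. The genotypes overlapped over most of their range and differed by -0.18 ± 0.16 (adjusted p = 0.839). Acly differed by 0.08 ± 0.20 (adjusted p = 0.945).

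The desaturases differed in how well they were measured. Scd2 (20250) read 5.58, 5.41 and 4.04 log2 CPM in wild-type set a, 4.48, 4.39, 5.08 and 5.27 in wild-type set b, 4.80, 4.25 and 5.26 in Il1rn-/- set a, and 5.16, 5.18, 4.74 and 5.84 in Il1rn-/- set b. Its difference was 0.14 ± 0.26 (adjusted p = 0.922), within the spread of either genotype. Scd1 (20249) read 2.01, 2.73 and -0.06 in wild-type set a, 2.04, 0.56, 0.32 and 1.499 in wild-type set b, 2.50, 1.40 and 2.59 in Il1rn-/- set a, and 2.13, 1.67, 0.03 and -3.584 in Il1rn-/- set b, where the last value stands for 0 reads in Il1rn-/- 4-b. The highest count of Scd1 in any library was 28 reads, and the difference was -0.34 ± 0.76 (adjusted p = 0.941). Without Il1rn-/- 4-b it was 0.37, of the opposite sign.

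Stard4 (170459), which carries cholesterol between membranes and is a known SREBP-2 target, varied least among the genes given in full. It read 3.61, 4.17 and 3.80 log2 CPM in wild-type set a, 4.02, 3.88, 3.81 and 4.00 in wild-type set b, 3.65, 3.88 and 4.12 in Il1rn-/- set a, and 3.83, 3.52, 3.95 and 3.96 in Il1rn-/- set b. The means of 3.90 ± 0.18 and 3.84 ± 0.20 (SD, n = 7 each) differed by -0.06 ± 0.18, with an interval of -0.43 to 0.32 (adjusted p = 0.957).

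The genotype comparison was also made within each set. No member was called in set a or in set b, where 0 of 12329 genes passed in each (0%), and none for the difference between the sets (0%). The smallest adjusted p in the table was 1 in set a, 0.0968 in set b and 0.61 for the difference. At an unadjusted p under 0.05 there were 243, 1848 and 968 genes in these 3 tests, of which 0, 2 and 0 were members. Without Il1rn-/- 2-b, 230 genes passed in set b, and 0 members. The member median was -0.02 in set a and -0.19 in set b, against 0.03 and 0.05 over all genes, and with library group as a further term the set b median was -0.01.

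The 2 members were Idi1, at 0.27 ± 1.04 in set a and -2.11 ± 0.90 in set b (limma, adjusted p = 0.297 in set b), and Acaca, at -0.12 ± 0.55 and -1.05 ± 0.47 (adjusted p = 0.316). Fdps stood at -0.31 ± 0.44 and -0.80 ± 0.38, and Insig1 at -0.01 ± 0.37 and -0.53 ± 0.32. Insig2 was above 0 in set a, at 0.42 ± 0.30, and below 0 in set b, at -0.23 ± 0.26, a difference between sets of -0.64 ± 0.40 (adjusted p = 0.687). In set b all 4 wild-type libraries were Rn45s-rich and 2 of the 4 Il1rn-/- libraries were not, so there the library group stood partly in place of genotype. With library group as a further term, the set b difference of Idi1 was -0.15 ± 0.77, that of Acaca -0.50 ± 0.53, that of Fdps 0.12 ± 0.28 and that of Insig1 -0.05 ± 0.33 (limma, adjusted p of 0.993 to 1). All 4 lay closer to 0 than without that term.

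Groups that did not overlap were seen for 1 member in each set. Msmo1, a sterol methyl oxidase, was lower in all 3 Il1rn-/- libraries of set a (4.02, 3.95 and 4.21 log2 CPM) than in the 3 wild-type libraries (4.26, 4.44 and 4.46), a separation that 7.97% of all genes tested showed in set a. Hsd17b7, a reductase of the same demethylation steps, was higher in the 4 Il1rn-/- libraries of set b (2.64, 2.39, 2.59 and 2.70) than in the 4 wild-type libraries (1.47, 1.84, 2.24 and 2.16), which 4.28% of all genes showed in set b. Neither passed the test, with adjusted p of 1 and 0.436 (limma). In the other set Msmo1 differed by 0.09 ± 0.23 and Hsd17b7 by -0.19 ± 0.45, with the opposite sign in both cases.

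**Figure D3:**
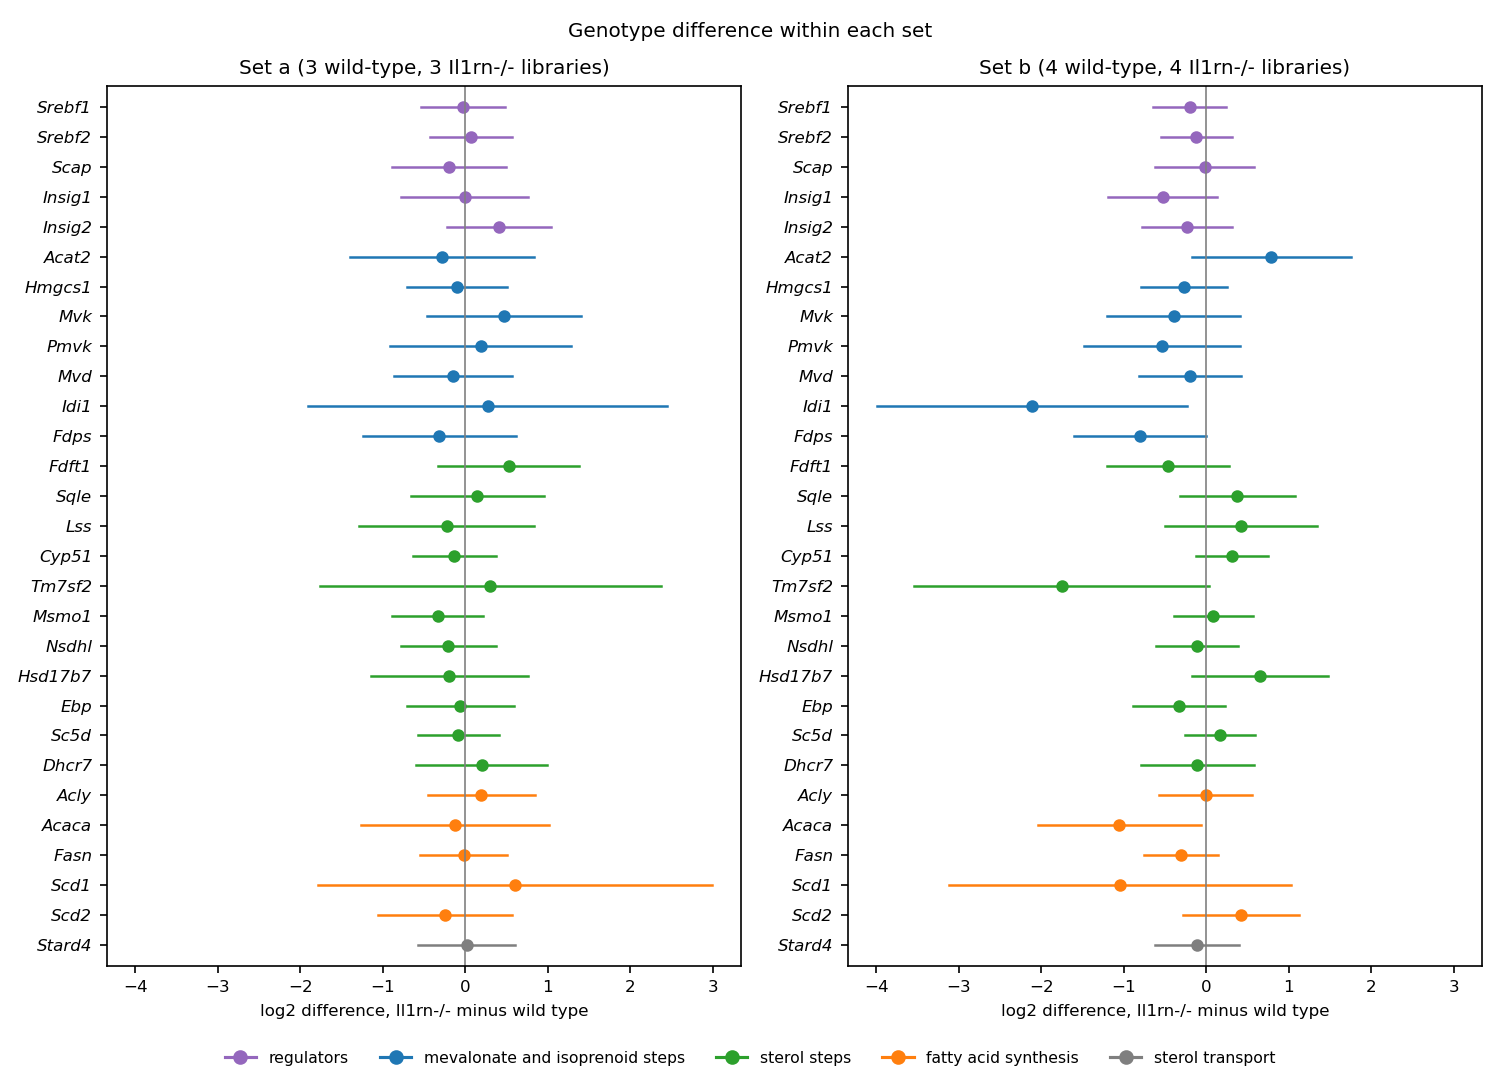
Log2 difference between Il1rn-/- and wild-type libraries (x axis) for each of the 29 genes (y axis) in set a (left) and set b (right); points are limma estimates and lines 95% confidence intervals. In set a all intervals include 0; in set b those of Idi1 (-3.99 to -0.23) and Acaca (-2.04 to -0.06) lie below 0 before adjustment over all genes. With library group as a further term these 2 differences were -0.15 ± 0.77 and -0.50 ± 0.53, with only the Rn45s-rich Il1rn-/- libraries set against wild type.

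Between sets, whatever the genotype, 3 members were called. Idi1 was higher in set b by 2.66 ± 0.73 and Fdps by 1.15 ± 0.29, while Acat2 was lower in set b by 1.24 on the log2 scale, a difference of -1.24 ± 0.36 (limma, adjusted p = 0.0170, 0.0118 and 0.0241). Over all genes, 8.48% were called higher and 11% lower in set b, and the median gene differed by -0.11. With library group as a further term, or within the Rn45s-poor libraries of both sets, 0 of 29 members were called. Over all genes, 0.0973% and 0.0162% were called in these fits, against 19.5% without the term, so the calls of nearly all genes were lost there. With library weights 7 members were called, against 33.2% of all genes. Within the Rn45s-poor libraries, Idi1 differed between sets by -0.49, Fdps by -0.01 and Acat2 by 0.10. Acat2 also lost its call between sets when any 1 of the 3 wild-type libraries of set a was left out, with an adjusted p of up to 0.0673 (limma).

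Of the comparisons made, the one between Rn45s-poor and Rn45s-rich libraries, with genotype and library group as terms, called the most members. The test called 13 of 29 members, 3 higher and 10 lower in the Rn45s-poor libraries. Over all genes 36.1% were called, 20% higher and 16.1% lower in the Rn45s-poor libraries. The median difference (poor minus rich) was -0.17 over the members and 0.12 over all genes. CPM was also recomputed with the reads outside Rn45s as library size, which drops the scaling held in the deposited values as well. That scaling gave wild-type 1-b, with 2151760 reads, a size of 1484316, and wild-type 3-a, with 3522049 reads, one of 5687969. In the recomputed CPM the median over all genes moved to -0.07 and that of the members to -0.36. The part of the Rn45s reads and of the scaling in this move was not tested. The split of member calls then moved from 3 higher and 10 lower to 1 higher and 11 lower, and that over all genes to 13.4% higher and 21.6% lower. Per role, the test called 3 of 5 regulators, 5 of 7 mevalonate and isoprenoid genes, 3 of 11 sterol genes, 2 of 5 fatty acid genes and 0 of 1 transport genes.

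The mevalonate and isoprenoid genes moved in both directions. Idi1 was lower in the Rn45s-poor libraries, with -1.33, 0.70 and 1.79 log2 CPM as the lowest, median and highest of 8, against 3.96, 4.25 and 4.53 of 6, a difference of -3.75 ± 0.48 (adjusted p = 4.69e-06, limma). Fdps was lower too, with 2.96, 3.51 and 3.93 against 4.92, 5.06 and 5.37, a difference of -1.59 ± 0.18 (adjusted p = 8.32e-07, limma). Mvk, mevalonate kinase, was lower by -0.80 ± 0.29. Acat2 was higher, with 3.33, 3.42 and 3.85 against 1.12, 1.90 and 2.62, a difference of 1.67 ± 0.28. The Acat2 values rest on 30 to 75 reads in the Rn45s-poor and only 3 to 10 reads in the Rn45s-rich libraries. Hmgcs1 was higher by 0.51 ± 0.17 (limma, adjusted p = 0.0265), but by 0.32 (adjusted p = 0.225) with the reads outside Rn45s as library size. The library groups of Idi1, Fdps and Acat2 did not overlap, as those of 14.9% of all genes did not.

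Among the regulators, Srebf2 was lower in the Rn45s-poor libraries by -0.50 ± 0.13 and Insig1 by -0.62 ± 0.22 (limma, adjusted p = 0.00583 and 0.0296). Scap was higher by 0.64 ± 0.17 (limma, adjusted p = 0.00689), and by 0.45 with the reads outside Rn45s as library size (adjusted p = 0.0508). Srebf1 and Insig2 were not called, at 0.19 ± 0.15 and -0.25 ± 0.21. The sterol genes Fdft1, Ebp and Dhcr7 were lower by -1.04 ± 0.21, -0.62 ± 0.19 and -0.68 ± 0.21, and the fatty acid genes Acaca and Fasn by -0.998 ± 0.33 and -0.47 ± 0.14. Their called differences all pointed the same way within these 2 roles, while 5 of 11 sterol genes had differences above 0.

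With 1 library left out at a time, the calls of Idi1, Fdps, Fdft1, Acat2, Scap, Srebf2 and Fasn between library groups held in all 14 fits, with adjusted p of at most 0.0424 (limma). Mvk lost its call in 7 fits (without wild-type 1-a, 2-a, 1-b, 3-b or 4-b or Il1rn-/- 2-a or 1-b, adjusted p up to 0.117). Insig1 lost it in 5 (without wild-type 1-a, 3-a or 1-b or Il1rn-/- 1-b or 2-b, up to 0.0807), Hmgcs1 in 4 (without wild-type 1-a or 4-b or Il1rn-/- 1-b or 2-b, up to 0.0932) and Acaca in 3 (without wild-type 1-a or 4-b or Il1rn-/- 1-b, up to 0.140). Ebp and Dhcr7 lost it without Il1rn-/- 2-b, at 0.0712 and 0.0642.

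**Figure D4:**
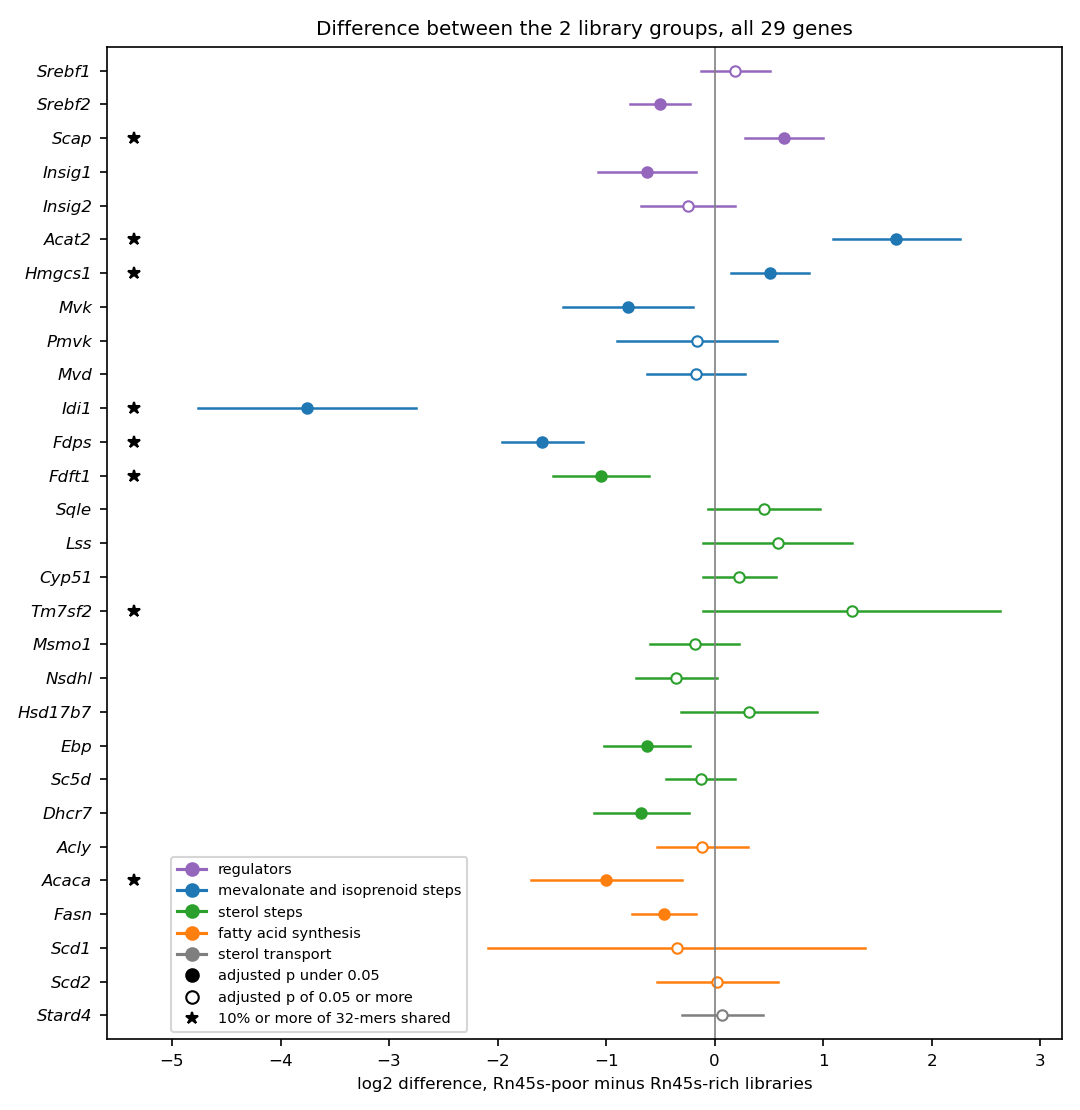
Log2 difference between 8 Rn45s-poor and 6 Rn45s-rich libraries (x axis) for each of the 29 genes (y axis), with 95% confidence intervals; filled points passed an adjusted p of 0.05 and stars mark genes that share 10% or more of their 32-base words with other genes. Idi1 (-3.75) and Acat2 (1.67) lie farthest from 0, and 7 of the 8 starred genes have filled points. Of all genes tested, 36.1% were called in this comparison.

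The 2 kinds of library were compared within single groups as well. Set b alone held 2 Rn45s-poor and 6 Rn45s-rich libraries and gave 5 called members of 29, against 10.2% of all genes: Fdps at -1.835 ± 0.27 (adjusted p = 0.00188), Scap at 1.22 ± 0.24, Idi1 at -3.93 ± 0.79, Fdft1 at -1.51 ± 0.31 and Dhcr7 at -1.21 ± 0.30 (limma). Those 2 Rn45s-poor libraries, Il1rn-/- 3-b and 4-b, also carried Y-linked transcripts. With Y-linked transcripts as a further term over all libraries, 8 of 29 members were called, 1 higher and 7 lower, against 26.2% of all genes, 14.8% higher and 11.4% lower. The contrast of set b, 2 against 2, was also fitted in its 4 Il1rn-/- libraries alone, leaving out the wild-type ones. There 0 of 29 members passed, against 3.18% of all genes. Fdps at -1.835 (limma, adjusted p = 0.0525) and Fdft1 at -1.51 (adjusted p = 0.0564) lay nearest to the threshold.

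Other transcripts were called between the library groups as well, to be read against the 36.1% of all genes called there. Of 15 cycling genes, 6 were called, 5 of them higher in the Rn45s-poor libraries, such as Mki67 by 1.69 and Top2a by 1.07, while Pcna was lower by -0.87. The summed level of the cycling genes was 595 to 1400 CPM in the Rn45s-poor and 616 to 842 CPM in the Rn45s-rich libraries. Of 9 regulatory T cell genes, 6 were called, 2 of them higher in the Rn45s-poor libraries, with Ctla4 at 1.11, Cd3e at -2.46 and Cd4 at -0.41. Of the 8 B cell genes, 7 were tested and 2 were called, both higher in the Rn45s-poor libraries, among them Cd22 at 2.09. The B cell list summed to 17.8 to 72.2 CPM there and 20.2 to 60.9 CPM in the others. In the CD8 T and NK cell list, 2 of 4 genes tested were called. Both were lower in the Rn45s-poor libraries, Cd8a at -1.16 and Cd8b1 at -1.25. That list summed to 27.1 to 49.5 CPM in the Rn45s-poor and 40.7 to 77.5 CPM in the Rn45s-rich libraries. The part of depth, dividing cells or other cells in the member differences was not tested, and in bulk libraries fewer cells of a type and less RNA per cell cannot be told apart.

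Some members share sequence with other genes. In GENCODE M21 transcripts, 8 members shared at least 10% of their 32-base words with other genes. They were Acat2 (43.5%), Acaca (33.3%), Fdft1 (31.6%), Fdps (27.9%), Idi1 (26.9%), Tm7sf2 (13.1%), Hmgcs1 (13.0%) and Scap (11.2%). The largest partner was Acat3 for Acat2 and a processed pseudogene for Acaca and for Idi1. For Fdps it was Gm43738, annotated as protein-coding (24.5%), and for Fdft1 it was Ctsb (17.6%). Acat3 had a mean of -2.28 log2 CPM and Ctsb one of 7.79. Acat2 also shared 13.08% of its words with Tcp1, which had a mean of 7.38 log2 CPM. Tcp1 was higher in the Rn45s-poor libraries by 0.52 (limma, adjusted p = 0.00517), as Acat2 was, while Ctsb differed by -0.03 (adjusted p = 0.876). Between library groups 7 of these 8 were called, and 6 of the other 21, against 36.1% of all genes tested. The share called among all genes that share as much sequence was not counted. Between genotypes the median difference of these 8 was -0.39, and that of the other 21 was -0.04, with set as a term. Genotype and library group were partly mixed, and the differences of Idi1, Fdps and Acaca were smaller with library group in place of set. The medians from that fit are not given here. The rule by which the authors counted reads that match several genes is not given in the sources used here. The levels of these 8 genes are therefore uncertain, and the part of shared sequence was not tested.

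Beyond the 29 members, 75 of 82 other genes of lipid handling were tested, and none was called between genotypes, with a median difference of 0.00. Of 13 other genes of sterol and isoprenoid synthesis, 8 differences were above 0 and 5 below. The cholesterol exporter Abca1 differed by -0.52 ± 0.21 with an adjusted p of 0.787 (limma), and all 7 Il1rn-/- libraries had values under its wild-type mean.

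The 15 other genes of SREBP control, 16 of sterol uptake and efflux, 18 of fatty acid synthesis and 13 of fatty acid oxidation had genotype medians of 0.00, -0.01, 0.02 and -0.01. Lpin1, a phosphatidate phosphatase that also acts in the nucleus on SREBP, differed by -0.69 ± 0.33. Aacs, which activates acetoacetate for lipid synthesis, differed by 0.31 ± 0.17. In fatty acid oxidation, Hadh and Acadvl stood at 0.53 ± 0.18 and 0.28 ± 0.13, and for Acadvl all 7 Il1rn-/- libraries exceeded the wild-type mean. All 4 had an adjusted p of 0.787 (limma), so none passed. Hadh was also called higher in the Rn45s-poor libraries, which held more Il1rn-/- than wild-type libraries. The differences of these 4 genes and of Abca1 with library group in place of set are not given here. Acadvl shares 32.87% of its 32-base words with Dvl2, so its level is uncertain.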

How the data were processed

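RNA was taken from sorted cells with a Qiagen RNeasy Micro kit and made into Smart-Seq2 libraries, per the labels' protocols, which name Cuffquant 2.2.1 for quantification. TopHat2 2.0.10, BWA, Cuffnorm and Cufflinks 2.2.1 appear in the submitters' processing notes. Not given in the sources used here are the genome build, the annotation and the handling of strand. The deposited values are log2 CPM, scaled to library sizes that differ from the sums of reads. Whole reads were recovered from the even steps of these values (100% within 0.001 of a whole number) and used for depth, single-gene reads and limma voom.

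Genes with CPM over 1 in at least 3 libraries were fitted by limma 3.58.1 under R 4.3.3, with terms for genotype and set and a variance trend on intensity, two-sided, with Benjamini-Hochberg adjustment at 0.05 over all genes tested. A model of 4 groups gave the contrasts within sets, and genotype with library group gave the library comparison, split at 50% of reads in Rn45s. Y-linked transcripts were called from 20 reads. The steps were tested on simulated data. Tables and figures used Python 3.11.15. Sequence shared between genes was counted as exact 32-base matches.

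The members, lists and library groups were chosen with earlier results of these data known. All 29 members are named. Values per library are given for the 2 members of each role with the smallest genotype p and for Srebf1, Srebf2, Insig1, Insig2, Scd1 and Scd2. From other lists up to 3 genes were taken by p. Some genes of the other lists are not reported here. Vldlr, Me1 and Thrsp were not analysed here.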

Additional observations from a re-analysis of the deposited data

Results flagged for a closer look

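Among the 58 groups of 4 libraries formed by the 29 genes in the wild-type and the Il1rn-/- part of set b, 2 held a library that stood far from the other 3 by Dixon's criterion at 95%. Chance gives about 1 in 20 groups. Msmo1 read 5.10 log2 CPM in Il1rn-/- 3-b, on 109 reads, above the next library at 4.58. Acly read 6.79 log2 CPM in wild-type 3-b, on 95 reads, below the next library at 7.05, and this was the library with the fewest reads of all 14.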

How the results depend on the processing

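No member was called between genotypes, within set a, within set b or for the difference between sets under any alternative run: filters, log2(CPM + 1), median centring, CPM without Rn45s reads, limma voom, library weights, other covariates, subsets and each library left out. Over all genes, 13 passed between genotypes in Rn45s-rich and 2 in Rn45s-poor libraries alone, and 4 in set b with library group as a further term. TMM scaling and edgeR's quasi-likelihood test on recovered reads were not run. No pairing of libraries by replicate number was seen: same-numbered libraries correlated at -0.29 to 0.063 after removing group means, and 1 of 7 fitted its own number best. This check cannot exclude a pairing, because the groups are small and the Il1rn-/- part of set b mixes Rn45s-rich and Rn45s-poor libraries. A replicate block left all counts of member calls at 0 and put Fdps at -0.59.

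The number of members called between sets was 3 (2408 of all genes), 7 with library weights (4091), 0 with library group as a further term (12) and 0 in Rn45s-poor libraries alone (2), and 2 to 5 without single libraries, with 5 without Il1rn-/- 3-b or 4-b. The number called between library groups was 13 (4447 of all genes), 5 in set b alone (1263), and, in 2 alternatives chosen after seeing the data, 8 with Y-linked transcripts as a further term (3229) and 0 in the Il1rn-/- libraries of set b (392). The fits in set b alone and in its Il1rn-/- libraries made the same contrast. Without single libraries the number called between library groups was 9 to 13.

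Signs turned for 3 called differences, those of Idi1, Fdps and Acat2 between sets, and otherwise for differences that were not called, and the cause was not tested. With library group in place of set, Srebf2 was 0.11 between genotypes, and 0.12 with Y-linked transcripts added. In Rn45s-poor libraries alone, Idi1 was 0.076, Srebf1 0.071, Srebf2 0.070, Stard4 0.050, Tm7sf2 0.10 and Scd2 -0.033. In Rn45s-rich libraries alone, Fdps was 0.12, Insig2 -0.33, Scd1 0.80 and Srebf2 0.16. Without libraries holding Y-linked transcripts, and with library group, Fasn was 0.15, Idi1 0.19, Insig1 0.13, Insig2 -0.15, Scd1 1.31 and Srebf2 0.19. Library weights gave Scd1 0.15, Scd2 -0.0056 and Srebf2 0.056, limma voom gave Scd1 0.16, log2(CPM + 1) gave Scd1 0.00050, and CPM without Rn45s reads gave Insig2 -0.064. With library group as a further term, set b made the same contrast as the Rn45s-rich libraries and gave Fdps 0.12, Scd1 0.80 and Srebf2 0.16. The difference between sets was then 0.016 for Fasn, 0.43 for Fdps, 0.19 for Scd1 and 0.090 for Srebf2. Between sets, Acat2 was 0.042, Idi1 -0.40 and Fdps -0.11 with library group as a further term, and 0.10, -0.49 and -0.011 in Rn45s-poor libraries alone. Median centring gave Stard4 -0.044 in set a.

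Leaving out single libraries, the genotype difference ran from -0.046 to 0.13 for Insig2, -0.73 to 0.37 for Scd1, -0.0069 to 0.28 for Scd2, -0.11 to 0.068 for Srebf2 and -0.11 to 0.0012 for Stard4. In set a it ran from -0.24 to 0.13 for Fasn, -0.23 to 1.01 for Idi1, -0.24 to 0.29 for Insig1, -0.20 to 1.19 for Scd1, -0.73 to 0.043 for Scd2, -0.064 to 0.41 for Sqle, -0.18 to 0.12 for Srebf1, -0.0100 to 0.16 for Srebf2 and -0.11 to 0.18 for Stard4. In set b it ran from -1.73 to 0.17 for Scd1 and -0.27 to 0.064 for Srebf2, and the difference between sets from -0.031 to 0.44 for Sqle. Low reads limit Idi1, Scd1, Tm7sf2 and Hsd17b7, with at most 42, 28, 14 and 36 reads in any library. They also limit Acat2 between sets and between library groups, with 3 to 10 reads in the Rn45s-rich libraries.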

Other observations

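Among the other genes of lipid handling, 17 of 75 were called between Rn45s-poor and Rn45s-rich libraries, 6 higher and 11 lower in the Rn45s-poor, against 36.1% of all genes tested. In fatty acid oxidation these were Hadhb, a subunit of the mitochondrial trifunctional protein, at -2.97 ± 0.14 (SE; limma, adjusted p = 2.52e-12), and Hadh, the dehydrogenase of shorter chains, at 0.76 ± 0.14. Hadhb had a genotype difference of -0.86 ± 0.39 with set as a term and of -0.01 with library group in place of set. It shares 23.4% of its 32-base words with other genes, mostly processed pseudogenes, so its level is uncertain.

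Lrp8, a receptor for lipoproteins and reelin, had the largest genotype difference of these 75 genes, 1.65 ± 0.88 (limma, adjusted p = 0.787), on 0 to 17 reads per library. The set a difference was -0.76 and the set b difference 3.46. Values exceeded the wild-type mean of -0.71 log2 CPM in all 7 Il1rn-/- libraries, but that mean pools both sets. Libraries with 0 reads take the lowest value of the scale, so they were all wild-type and lowered that mean. The count of 7 therefore does not show a rise in both sets, and in set a the difference was below 0. The difference with library group in place of set is not given here.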
